A study of Mus musculus with 60 samples.

Results

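The comparison described here set 6 mice given 50 mg/kg BIO 300 (labelled BIO300-Low, animals 1 to 6) against 6 mice given vehicle (animals 13 to 18), all bled on Day 0 (dosing ended 24 h earlier). These 12 mice were chosen by their labels from 60 in the series. All were male CD2F1 hybrid mice, bought young and housed 3 per cage, that received repeated oral gavage and no irradiation before this time point. BIO 300 is a powder formulation of synthetic genistein, an isoflavone also found in soy and an agonist of oestrogen receptor beta, and the vehicle of water, methylcellulose and polyvinylpyrrolidone K25 was given to both groups. Whole blood was drawn terminally from the inferior vena cava, so each library holds the RNA of every cell in 1 mouse's blood, and the total counts ran from 15099415 to 25211167 with vehicle and from 16962659 to 27313064 at 50 mg/kg. Mice given 100 or 200 mg/kg on Day 0, and mice given vehicle or 50 mg/kg and bled on Day 1 (dosing ended 48 h earlier) were used only to show where the 50 mg/kg mice differed.

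Most RNA in whole blood comes from erythroid cells, chiefly reticulocytes, the newly released red cells that have lost their nucleus but still carry messenger RNA. During maturation a reticulocyte clears its mitochondria and ribosomes, remodels its membrane skeleton and finally loses its RNA, so a blood RNA profile follows the number and the age of reticulocytes as well as the leukocytes and platelets. Haemoglobin, haem synthesis enzymes and the band 3 and ankyrin membrane complex are the products these cells are known for.

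Against vehicle, edgeR's quasi-likelihood test with Benjamini-Hochberg adjustment called 1103 differentially expressed genes (DEGs, adjusted p under 0.05 and absolute log2 fold change over 1) among 24485 genes tested (4.5%). Of these, 1072 were lower at 50 mg/kg (4.38% of genes tested) and 31 were higher (0.127%). By the adjusted p alone, 9.87% of genes were lower and 4.21% higher. The 6 values of each group did not overlap for 7.31% of genes, with 50 mg/kg the lower group for 4.46%. The direction of the calls rested on trimmed mean of M values (TMM) scaling. Scaled to total counts, the same test called 307 genes lower and 2563 higher, and the median log2 fold change of all genes moved from 0.029 to 0.69. Decreases are therefore given below relative to the bulk of genes, with the total-count value where it differs in sign. The erythroid lists together lay 1.38 below the median of all genes on the log2 scale with TMM (difference of -1.38) and 1.41 below it (difference of -1.41) with total counts.

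Several libraries stood apart, and the p-values here set the difference between groups against the spread between these mice. In mouse 2 of the 50 mg/kg group, the TMM factor was 0.987 while the other 5 mice lay between 1.22 and 1.4, and erythroid RNA was closest to the vehicle level. Mouse 2 had the highest level of its group for 504 of the 573 decreased genes with a mean of at least 10 CPM (counts scaled to a common library size) in 1 group (88%), against 25.7% of all genes at that level. Without mouse 2 there were 1309 DEGs, 1279 of them lower. Hepatocyte genes took 1.69% of the counts of vehicle mouse 17, 0.249% of mouse 1 and 0.0151% of mouse 5, and at most 0.000654% in the other 9 mice. Vehicle mouse 16 carried skeletal muscle RNA (0.0099%) and the most adipocyte RNA (0.0086%). Leaving out mice 1, 5, 16 and 17, a choice made after seeing the data, gave 632 DEGs, 617 of them lower.

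The 3 largest decreases, ranked among DEGs that reached a mean of 10 CPM in either group and separated the groups completely, were short or noncoding features. All 3 belong, with Lars2, to a set of 6 genes known for collecting reads of ribosomal RNA, and whether their counts come from the annotated gene was not tested. Gm26917 and Gm42418, the most abundant of the set, were not called. Their log2 fold changes were 0.10 and -1.11 (edgeR adjusted p = 0.945 and 0.101). The whole set took 6.76% to 10.9% of counts (mean 9.56%) with vehicle and 9.02% to 15.2% (mean 13.1%) at 50 mg/kg. For Gm26917 alone the means were 6.32% and 10.9%. Gm25732 (ENSMUSG00000092909, chromosome 4, 139338206 to 139338265, GRCm38, annotated as a microRNA of 60 bases) ranged from 17.3 to 41.5 CPM (median 28.5) with vehicle and from 2.19 to 7.84 (median 4.18) at 50 mg/kg. Gm15564 (ENSMUSG00000086324, chromosome 16, 35966752 to 35983230, annotated as antisense RNA) ranged from 88.3 to 231 CPM (median 150) and from 14.6 to 53.3 (median 24.7). Mir6236 (ENSMUSG00000098973, chromosome 9, 110281287 to 110281409) ranged from 707 to 1720 CPM (median 1280) and from 161 to 463 (median 243). Every vehicle mouse was above every 50 mg/kg mouse for all 3. The log2 fold changes were -2.63 ± 0.34, -2.46 ± 0.34 and -2.26 ± 0.30 (SE, n = 6 per group, edgeR adjusted p = 0.00255 for each).

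The sequences behind this set are shown because the genes could share reads. Over their GENCODE transcripts, Gm15564 and Lars2 hold a common run of 52 bases on the same strand, while the longest run shared by any other pair of the 6 genes of the set was 13 bases. The mature miR-6236 of RefSeq (GRCm38.p6, chromosome 9, 110281353 to 110281371, plus strand) is printed with its seed, bases 2 to 8, in capitals, and that seed occurs in 1 of 1738 mature mouse miRNAs of the table. Gm25732 is named only.
Run shared by Gm15564 and Lars2: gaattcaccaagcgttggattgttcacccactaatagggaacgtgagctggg
mmu-miR-6236: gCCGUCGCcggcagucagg

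After these 3, the next 12 decreases by the same conditions held 5 genes of the erythroid lists, and Lars2 from the ribosomal RNA set. Lars2, encoding mitochondrial leucyl-tRNA synthetase, ranged from 2870 to 5830 CPM (median 5260) with vehicle and from 559 to 2210 (median 812) at 50 mg/kg, a log2 fold change of -2.19 ± 0.36. Apol11b, of the apolipoprotein L family, followed with a range of 415 to 1790 CPM (median 874) against 105 to 373 (median 215) and a log2 fold change of -2.11 ± 0.41. Both separated the groups completely, with edgeR adjusted p-values of 0.00265 and 0.00493. Slc4a1, encoding the band 3 anion exchanger, ranged from 3090 to 6740 CPM (median 5760) with vehicle and from 721 to 2660 (median 1080) at 50 mg/kg, with mouse 2 highest. Its log2 fold change was -1.93 ± 0.34 (edgeR adjusted p = 0.00322). Car2, a red cell carbonic anhydrase, ranged from 651 to 1500 CPM and from 164 to 616, a log2 fold change of -1.89 ± 0.32. Epb42 (protein 4.2) ranged from 177 to 423 CPM with vehicle and from 42.2 to 164 at 50 mg/kg. Epb42, Ank1 (ankyrin) and Add2 (beta adducin), which tie band 3 to the membrane skeleton, fell by 1.84, 1.84 and 1.83 on the log2 scale without overlap between groups. Gm867 and Rab3il1, an exchange factor for Rab proteins, fell by 1.89 and 1.82. Pcx (pyruvate carboxylase), 1300017J02Rik and Mgll (monoacylglycerol lipase) fell by 2.10, 2.01 and 1.85, and were highest in vehicle mouse 17, at 140, 118 and 56 CPM, where the other vehicle mice reached 52.6, 38 and 24.2 at most. That mouse had the most hepatocyte RNA. All 3 were also called without it, and without mice 1, 5, 16 and 17 together. These 3 had not been put in any list.

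**Figure D1:**
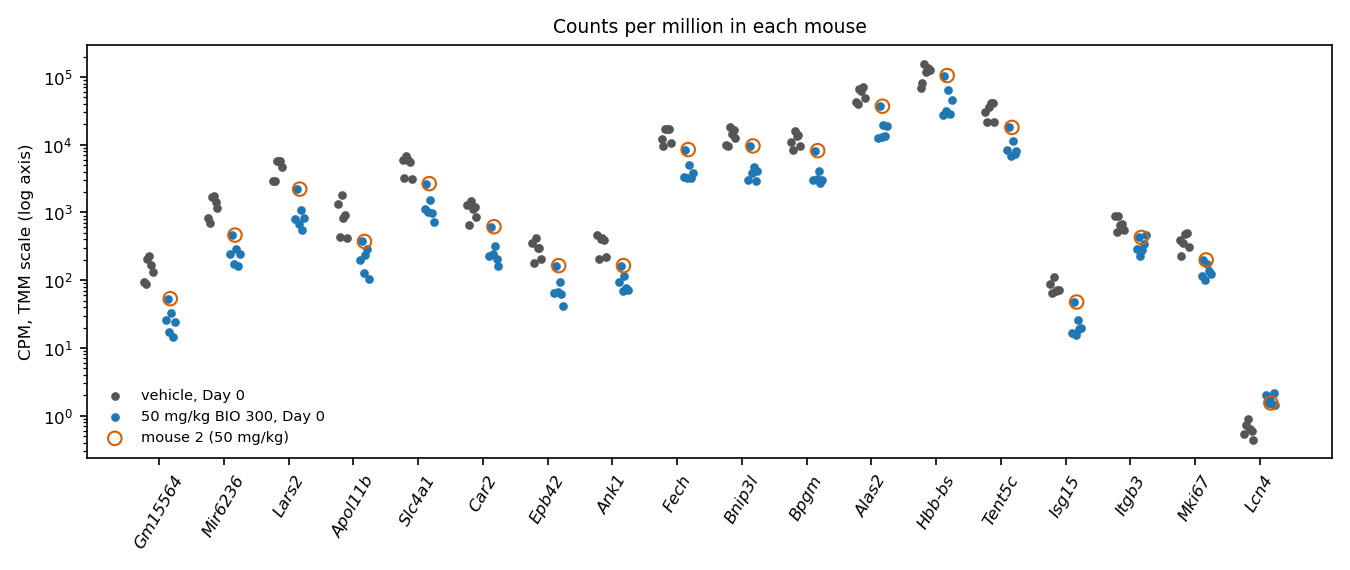
CPM on the TMM scale (log axis) for each of the 12 mice, 6 given vehicle (grey) and 6 given 50 mg/kg BIO 300 (blue), with mouse 2 of the 50 mg/kg group circled. The groups do not overlap for Slc4a1 (3090 to 6740 against 721 to 2660 CPM), while Hbb-bs overlaps (69600 to 154000 against 27800 to 105000), and Lcn4 is the only gene drawn that was higher at 50 mg/kg.

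Promoters from RefSeq (GRCm38.p6, 250 bases before to 50 after the annotated start) were found for 423 of the 573 decreased genes with at least 10 CPM. AGATAA or TGATAA, the core letters bound by the erythroid factor GATA1, stood on either strand in 13.9% of their 574 promoters, in 10.7% of the 8317 promoters of all genes at that level and in 18.6% of all 32851 promoters of the table. CCNCNCCC, a form of the element bound by KLF1, stood in 68.3%, 67.8% and 49.5% of the same promoters, searched on both strands. The erythroid lists had AGATAA or TGATAA in 25.2% of 115 promoters. Of the 15 largest decreases, 10 had an entry, and Epb42, Apol11b and 1300017J02Rik had such a match. The first 2 promoters are shown with the match, here on the minus strand of the printed sequence, in capitals. That of Epb42 spans chr2:121036828-121037127 and that of Apol11b chr15:77643237-77643536, both read along the minus strand of the chromosome. The match began 226 bases before the start of Epb42 and 83 bases before that of Apol11b.
Epb42: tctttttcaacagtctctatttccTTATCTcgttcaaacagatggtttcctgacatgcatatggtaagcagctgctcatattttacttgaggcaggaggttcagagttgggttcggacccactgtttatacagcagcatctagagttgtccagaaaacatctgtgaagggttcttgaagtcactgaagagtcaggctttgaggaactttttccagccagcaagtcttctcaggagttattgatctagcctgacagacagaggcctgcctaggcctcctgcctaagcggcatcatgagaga
Apol11b: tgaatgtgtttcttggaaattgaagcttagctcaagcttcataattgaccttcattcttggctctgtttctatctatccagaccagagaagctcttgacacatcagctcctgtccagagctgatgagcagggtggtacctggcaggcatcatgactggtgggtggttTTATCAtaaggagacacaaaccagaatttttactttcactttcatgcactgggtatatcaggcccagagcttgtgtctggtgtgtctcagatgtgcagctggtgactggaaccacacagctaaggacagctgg

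Of 110 genes in 8 erythroid lists, 108 passed the filter on low counts and 71 were lower DEGs with TMM. That was 65.7% of those tested against 4.38% of all genes, with a median log2 fold change of -1.35. With total counts 21 of the 108 were lower DEGs (median -0.72), against 307 of all 24485 genes. No erythroid gene was a higher DEG. Icam4 and Ahsp had no matching symbol in the annotation used and were not tested. The share of all counts uses no TMM factor but depends on all other RNA in the library, as total-count scaling does. By this share, the erythroid lists without adult haemoglobin took 15.4% to 20% with vehicle (18.0% ± 2.02, SD, n = 6). At 50 mg/kg they took 7.83% to 14.7% (9.61% ± 2.64, SD, n = 6). The groups did not overlap, and mouse 2 was the highest of its group. Fewer reticulocytes, less RNA in each reticulocyte and more RNA from other cells cannot be told apart in these bulk libraries.

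The red cell membrane and skeleton list had the lowest median log2 fold change of the 8 erythroid lists (-1.68), with 18 of 23 genes lower. Epb41 (protein 4.1) ranged from 10200 to 27700 CPM (median 20100) with vehicle and from 3750 to 9560 (median 5190) at 50 mg/kg, without overlap between groups, and fell by 1.74. Xk, Gypc and Add1 passed the adjusted p alone, with log2 fold changes of -0.95, -0.79 and -0.68, and Piezo1 and Slc14a1 had 0.14 and -0.19 and passed no test.

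Reticulocyte maturation and mitophagy genes were lower in 17 of 20 cases (median log2 fold change -1.45). Bnip3l, the mitophagy receptor that clears reticulocyte mitochondria, ranged from 9490 to 18000 CPM (median 13400) with vehicle and from 2960 to 9590 (median 3920) at 50 mg/kg, where only mouse 2 reached the vehicle range. Its log2 fold change was -1.52 ± 0.36 (edgeR adjusted p = 0.0147). Without mice 1, 5, 16 and 17 it was not called (edgeR adjusted p = 0.0667), nor were Epb41 (0.0512), Slc25a37 (0.0546), Ube2l6 (0.0768) and Ftl1 (0.0646). Ube2o and Trim58, ubiquitin ligases of terminal erythroid maturation, fell by 1.78 and 1.70, and Xpo7, the exportin of maturing erythroblasts, fell by 1.76 from a median of 799 to 190 CPM. Alox15, a lipoxygenase, had -0.33 and was not called.

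Red cell enzymes and antioxidants were lower in 11 of 13 genes tested (median -1.58). Bpgm, which makes the 2,3-bisphosphoglycerate that lowers oxygen affinity, ranged from 8410 to 16200 CPM (median 12300) and from 2680 to 8170 (median 3100), a log2 fold change of -1.59 ± 0.35. The antioxidant genes Cat (catalase), Prdx2 (peroxiredoxin 2) and Gpx1 (glutathione peroxidase 1) had log2 fold changes of -1.55, -1.56 and -1.42. Bcl2l1, encoding the survival factor BCL-XL, fell by 1.79 without overlap, from a median of 2470 to 521 CPM.

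Haem synthesis genes split. Of 14, 7 were lower (median -1.10). Fech (ferrochelatase) ranged from 9410 to 17300 CPM (median 14600) with vehicle and from 3180 to 8470 (median 3560) at 50 mg/kg, a log2 fold change of -1.63 ± 0.35, and the mitochondrial iron importer Slc25a37 (mitoferrin 1) fell by 1.67. Urod, which acts earlier in the pathway, fell by 1.46. Alas2, the first and rate-limiting enzyme of erythroid haem synthesis, did not overlap between groups (39900 to 70100 against 12400 to 37000 CPM) and had a log2 fold change of -1.54 ± 0.55, but its edgeR adjusted p was 0.0787. It was called lower by DESeq2, by edgeR with filterByExpr (edgeR's own filter on low counts), and by edgeR without mouse 2 or mouse 17. Cpox, Tmem14c and Flvcr1 passed no test at -0.54, -0.079 and -0.011.

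Of 4 adult haemoglobin genes, edgeR called Hbb-bt alone (log2 fold change -1.13 ± 0.33, edgeR adjusted p = 0.0363), and it was lost without any 1 of mice 1, 3, 4, 5, 6, 15, 16 and 18. Hbb-bs ranged from 69600 to 154000 CPM (median 123000) with vehicle and from 27800 to 105000 (median 38500) at 50 mg/kg, with mouse 2 highest, a log2 fold change of -1.18 ± 0.81 (edgeR adjusted p = 0.343), but DESeq2 called it lower. The haemoglobin share of counts overlapped between the groups (6.47% to 11.3% against 4.1% to 11.1%). Globin and ribosomal RNA depletion is described in the methods, but poly(A) selection in the labels, so what the haemoglobin counts left in a library represent is not settled by these sources. The theta globin genes Hbq1b and Hbq1a fell by 1.56 and 1.35.

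Of 18 transcription factors and receptors of erythropoiesis, 11 were lower (median -1.11). Klf1 ranged from 3.2 to 7.22 CPM with vehicle and from 1.64 to 3.05 at 50 mg/kg, without overlap, and fell by 1.29. Gata1, from 34.6 to 67.5 CPM against 15.3 to 30.1, fell by 1.10, and Epor, the erythropoietin receptor, fell by 1.24 from a median of 4.54 to 1.84 CPM. E2f2 fell by 1.69. Ldb1, Bcl11a and Zbtb7a had 0.30, 0.24 and -0.12 and passed no test. In the iron list, Ncoa4, the ferritin receptor for autophagy, and the ferritin chains Ftl1 and Fth1 fell by 1.58, 1.39 and 1.21, while the median of the 10 genes was -0.58 with TMM and 0.12 with total counts.

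**Figure D2:**
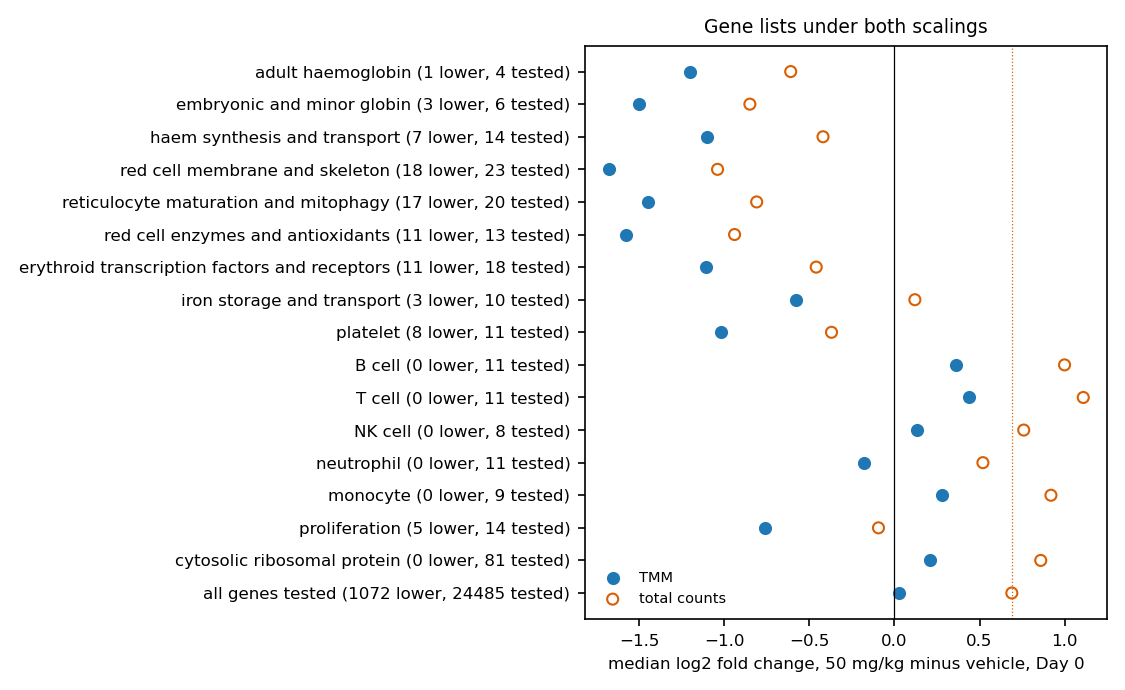
Median log2 fold change, 50 mg/kg minus vehicle on Day 0, of 16 gene lists and of all genes tested, with TMM (filled) and total-count scaling (open); the dotted line marks the median of all genes with total counts, 0.69. The 7 erythroid lists other than iron stay below 0 under both scalings, the iron list moves from -0.58 to 0.12, and the neutrophil list moves from -0.18 to 0.52.

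The 10 DEGs with the highest mean CPM, a measure not corrected for transcript length, were all decreases, and 7 of them were in the erythroid lists. Pabpc1 (cytoplasmic poly(A) binding protein) ranged from 23500 to 43200 CPM with vehicle and from 7470 to 22700 at 50 mg/kg, a log2 fold change of -1.58 ± 0.46 (edgeR adjusted p = 0.0384). Tent5c, a noncanonical poly(A) polymerase, ranged from 21600 to 41900 and from 6760 to 18000, a log2 fold change of -1.69 ± 0.44 (adjusted p = 0.0229). Mkrn1, a ubiquitin ligase, fell by 1.60. The Pabpc1 call was lost without any 1 of mice 1, 3, 4, 5, 6, 13, 15 and 16, that of Tent5c without mouse 3, 4, 5 or 6, and that of Ucp2, a mitochondrial carrier at -1.35, without mouse 1, 3, 4, 5 or 6. Among the 50 genes with the highest mean, 37 were decreases and 18 belonged to the erythroid lists.

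Genes in the erythroid lists were thus 71 of the 1072 decreases (6.62%), and 66 of the 573 with at least 10 CPM (11.5%). For comparison, these lists made up 108 of all 24485 genes tested and 96 of the 8206 genes with at least 10 CPM. Their share was larger near the top of the ranking. Of the decreases without overlap that followed the largest 3, they were 18 of the first 47 (38.3%), 23 of the first 97 (23.7%) and 47 of all 393 (12%). By counts, the decreased genes together fell from 36.9% ± 4.05 of all counts with vehicle to 19.9% ± 5.10 at 50 mg/kg (SD, n = 6 each). These genes were picked as lower in the same mice. Of this fall of 17 percentage points, 6.48 points (38%) lay in erythroid list genes called lower. That part leaves out erythroid genes not called, such as Hbb-bs and Alas2. All erythroid list genes, called or not, went from 27.4% ± 2.82 to 16% ± 5.41 of counts (SD, n = 6 each). Of the 1072 decreases, 967 (90.2%) were in none of the lists of named genes. Protein-coding genes made up 81.3% of the decreases and 64.6% of genes tested.

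**Figure D3:**
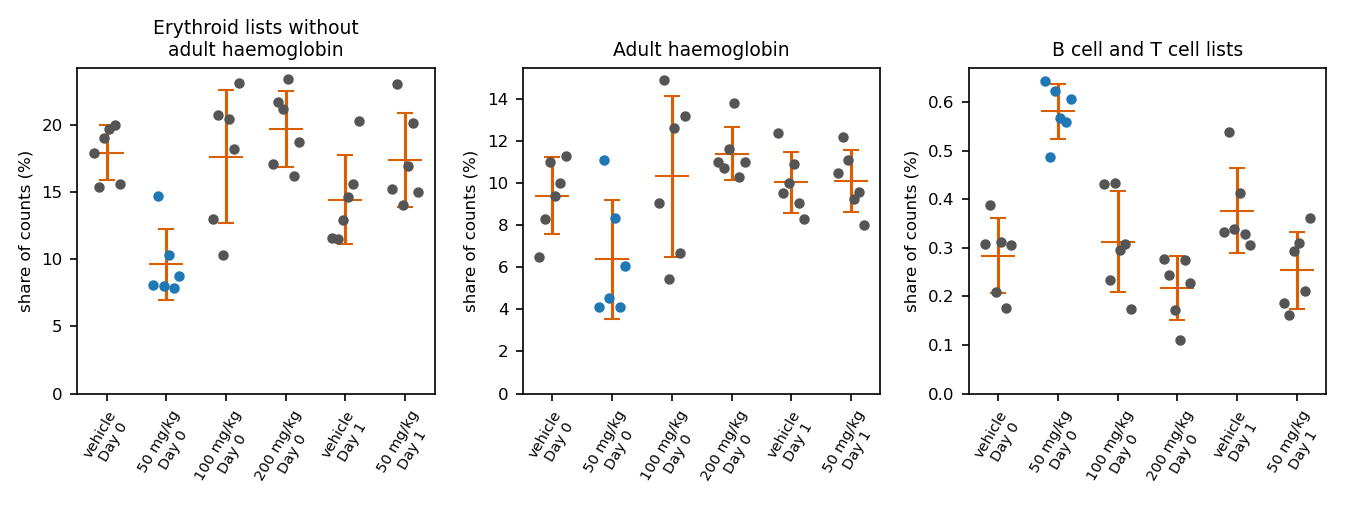
Share of all counts (%) on the erythroid lists without adult haemoglobin, on adult haemoglobin and on the B and T cell lists; points are mice (6 per group), bars the mean ± SD, and the 50 mg/kg Day 0 group is blue. The erythroid share at 50 mg/kg on Day 0 (7.83% to 14.7%) lies below every vehicle mouse of Day 0 (15.4% to 20%), and haemoglobin overlaps. The B and T cell share (0.487% to 0.644%) lies above every vehicle mouse of Day 0 (0.177% to 0.389%). Vehicle mice of Day 1 overlap these 50 mg/kg mice in the erythroid (11.5% to 20.3%) and the B and T cell share (0.307% to 0.539%).

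Whether the unlisted decreases moved with erythroid RNA was described in mice outside the comparison. Over the 12 mice given 100 or 200 mg/kg on Day 0, Pearson's r was taken between each gene's log2 CPM and the mean of the erythroid lists without adult haemoglobin, leaving out the gene itself. The points share library, depth and TMM scaling, and no p is given. The value was over 0.8 for 539 of the 573 decreases with at least 10 CPM (94.1%, median 0.97), for 473 of the 507 outside the erythroid lists (93.3%) and for 23.9% of all 8206 genes at that level. With total counts these shares were 57.9%, 56% and 4.47%. Over the 12 mice of Day 1 given vehicle or 50 mg/kg, they were 79.4%, 77.3% and 13.2% with TMM, and 40.1%, 37.9% and 2.94% with total counts. Among the 499 decreases under 10 CPM, 44.1% were over 0.8, against 3.76% of genes at that level, or 8.22% against 0.27% with total counts.

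**Figure D4:**
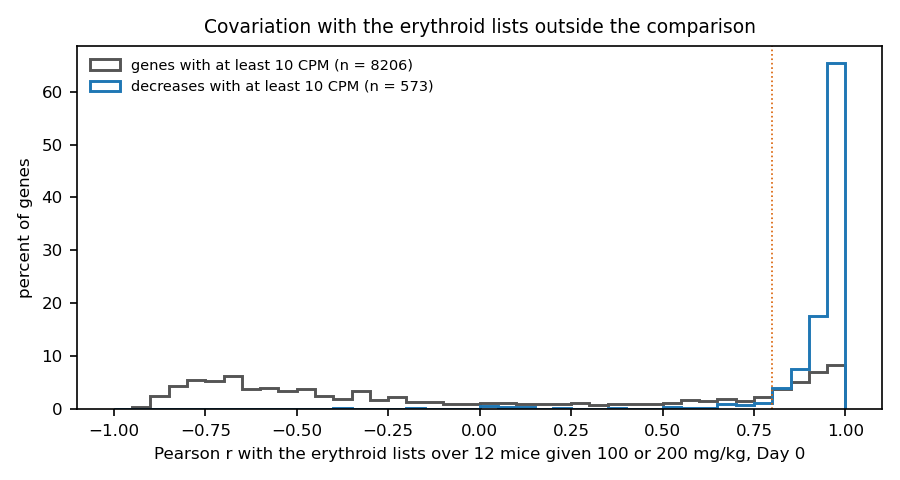
Distribution of Pearson's r with the erythroid lists over the 12 mice given 100 or 200 mg/kg on Day 0, as a percent of genes per bin, for 8206 genes with at least 10 CPM (grey) and the 573 decreases among them (blue); the dotted line marks 0.8. The blue distribution has 94.1% of its genes above the line and the grey one 23.9%.

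Of the decreases with at least 10 CPM, 14 had r under 0.6. Ucp1, the thermogenic uncoupling protein of brown fat, was named here after its values were seen. It ranged from 0.0494 to 26.2 CPM (median 18.3) with vehicle and from 0 to 0.434 (median 0.0137) at 50 mg/kg, with overlap. The log2 fold change of Ucp1 was -7.26 (edgeR adjusted p = 0.0027), and it was not followed in the fits without single mice. Fabp4, the adipocyte fatty acid carrier, ranged from 1.88 to 32.3 CPM and from 1.67 to 6.51, a log2 fold change of -2.61 ± 0.53 (edgeR adjusted p = 0.0064), with overlap. The others were Saa1, Gpd1, Thrsp, Acacb, Dgat2, Nlrp6, Lpl, Atf5, Chpt1, Tns1, Tgm2 and Fasn. Saa1 had a vehicle median of 0 CPM, and its vehicle mean of 15.1 CPM rested on mouse 17 (90.3). Mouse 17 was the highest vehicle mouse for 11 of the 14, and mouse 16 or 15 for the other 3. Of 8 adipocyte genes 5 were lower DEGs, including Adipoq and Cidec, and of 16 hepatocyte genes none was. Alb (albumin) stood at 9020 CPM in mouse 17, 656 in mouse 1 and 40.6 or less in every other mouse. The adipocyte list took 0.000308% to 0.0086% of the counts with vehicle and 0.000509% to 0.00291% at 50 mg/kg. The part of solid-tissue RNA in these decreases was not tested beyond leaving out mice 1, 5, 16 and 17. These mice had over 0.005% of counts on the hepatocyte, adipocyte or skeletal muscle list. In that fit Fabp4 and Cidec were still called and Adipoq was not (edgeR adjusted p = 0.118). The fit kept vehicle mice 13, 14 and 15, with adipocyte shares of 0.00379%, 0.00285% and 0.00415%, and mouse 18 at 0.000308%. It also kept mouse 4 of the 50 mg/kg group (0.00291%), so it did not set adipocyte RNA aside. Fabp4 was called without each mouse in turn, while Cidec lost its call without mouse 1, 3, 5 or 6 and Adipoq without mouse 1, 2, 3, 5, 6, 13, 15 or 16.

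Platelet genes formed the other blood cell list that fell. All 11 passed the adjusted p and 8 were lower DEGs (median -1.02), including Gp5, Itgb3 and Tubb1, the platelet glycoprotein V, integrin beta 3 and beta 1 tubulin, at -1.12, -1.03 and -1.13. Itgb3 ranged from 512 to 887 CPM with vehicle and from 225 to 463 at 50 mg/kg, without overlap, and its call was lost without mouse 1, 3, 4, 13 or 15. Their share of counts overlapped between the groups (0.352% to 0.595% against 0.279% to 0.502%). Leukocyte lists had no DEG with TMM. Of 11 B cell genes, 4 passed the adjusted p in the higher direction (4.21% of genes tested did), among them the B cell receptor components Cd79a, Cd79b and Ighd at 0.44, 0.44 and 0.55. No T cell gene passed, with a median of 0.44. With total counts, 5 of 11 B cell genes and 9 of 11 T cell genes were higher DEGs (medians of 1.00 and 1.11). The B and T cell lists together took 0.177% to 0.389% of counts with vehicle and 0.487% to 0.644% at 50 mg/kg, without overlap. Within each library the log2 ratio of erythroid (without haemoglobin) to B and T cell counts, which no scaling enters, was 6.02 ± 0.55 with vehicle (5.31 to 6.82) and 4.01 ± 0.48 at 50 mg/kg (3.65 to 4.91, SD, n = 6 each), without overlap. The ratio of platelet to B and T cell counts differed by -1.44 between the groups, and that of erythroid to platelet counts by -0.57.

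Other lists held a few DEGs, with r to the erythroid lists in the other doses over 0.8 for most of those named. Among 18 interferon-stimulated genes, Rsad2 (viperin) ranged from 3340 to 5670 CPM with vehicle and from 886 to 2750 at 50 mg/kg and fell by 1.81, and Isg15, a ubiquitin-like modifier, ranged from 63.7 to 111 and from 15.6 to 47.6 and fell by 1.72. Neither overlapped between groups, and r was 0.98 and 0.87. Ifit3, Oas2 and Mx1 of the same list had -0.17, -0.0096 and 0.29 and passed no test. Of the 18, 7 passed the adjusted p in the lower direction (9.87% of genes tested did) and none in the higher. The list's median was -0.29 with TMM and 0.34 with total counts. It took 0.323% to 0.539% of counts with vehicle and 0.157% to 0.315% at 50 mg/kg, without overlap. Of 14 proliferation genes, 5 were lower DEGs and 10 passed the adjusted p in the lower direction. The list's median was -0.76 with TMM and -0.094 with total counts, where none was a lower DEG. Mki67 (229 to 489 against 99.6 to 199 CPM), Top2a and Birc5 fell by 1.42, 1.13 and 1.29. The replication genes Pcna, Mcm2 and Mcm5 had 0.19, 0.11 and 0.20. Of 10 Nrf2 targets, Gclm, Nqo1 and Srxn1 fell by 1.36, 1.63 and 1.06, and the list's median was -0.64 with TMM and 0.045 with total counts. Of 9 small structural noncoding RNAs, 4 were lower, with a list median of -0.25 with TMM and 0.40 with total counts, and the list took 0.699% to 1.25% of counts with vehicle and 1.05% to 1.89% at 50 mg/kg. The Y RNA genes Rny1 and Rny3 of this list fell by 1.69 and 1.47, but neither was called without mice 1, 5, 16 and 17. Rny1 also lost its call without mouse 3, 5 or 15, and Rny3 without mouse 1, 3, 4, 5, 15, 16 or 18. None of the 11 oestrogen receptor and coregulator genes tested was a DEG. Esr2, the receptor that genistein prefers, was at 0 to 0.118 CPM with vehicle and 0 to 0.082 at 50 mg/kg, and Esr1 had a log2 fold change of -0.53 with TMM and 0.20 with total counts (edgeR adjusted p = 0.378 with TMM).

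Increases were few and low. None of the 31 reached 10 CPM in a group and 5 reached 1 CPM, with 1.85 CPM the highest mean. Lcn4, of the lipocalin family, ranged from 0.444 to 0.887 CPM (median 0.607) with vehicle and from 1.43 to 2.16 (median 1.61) at 50 mg/kg, without overlap, a log2 fold change of 1.44 ± 0.19 (edgeR adjusted p = 0.00255). It was also called with total counts (2.12) and without each mouse in turn. The other 4, B130034C11Rik, Gm16712, Gm13856 and Gm37008, had log2 fold changes of 1.11, 1.05, 1.04 and 1.01, and they lost their calls in 8, 4, 8 and 6 of the 12 fits that left out a single mouse.

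To see where the 50 mg/kg mice differed from higher doses without the vehicle mice, they were tested against the mean of the 100 and 200 mg/kg groups of Day 0. Among 25251 genes, edgeR called 1585 lower (6.28%) and 68 higher (0.269%) at 50 mg/kg. With filterByExpr, 1444 were lower and 2 higher. Of the 108 erythroid genes, 81 were lower, with a median log2 fold change of -1.64, against 0.072 for all genes. With total counts the medians were -0.82 and 0.80. Slc4a1 had a log2 fold change of -2.08 ± 0.37 between doses and Apol11b one of -2.83 ± 0.36. The erythroid lists without haemoglobin took between 10.3% and 23.1% of counts at 100 mg/kg, while the 200 mg/kg mice lay between 16.2% and 23.4%. The 2 doses did not contribute alike to the calls. Against 200 mg/kg alone, 2069 genes were called, and against 100 mg/kg alone edgeR called 0 of 24323 (smallest adjusted p 0.0544), although the unadjusted p was under 0.05 for 5455, and 1148 were called by DESeq2, 1144 of them lower. The erythroid median against 100 mg/kg was -1.48.

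On Day 1, in other mice, 0 of 24118 genes were DEGs between 50 mg/kg and vehicle by edgeR, and 2 passed the adjusted p alone. The unadjusted edgeR p was under 0.05 for 4458, and DESeq2 called 68, none of them erythroid list genes. The median erythroid log2 fold change was 0.57. Vehicle mice of Day 1 had 11.5% to 20.3% of counts on the erythroid lists without haemoglobin, overlapping the 50 mg/kg mice of Day 0 (7.83% to 14.7%). Mean shares with vehicle and at 50 mg/kg were 18% and 9.61% on Day 0, and 14.4% and 17.4% on Day 1. The interaction test asked whether the difference, 50 mg/kg minus vehicle, rose (as when a decrease shrank) or fell from Day 0 to Day 1. It called 1772 genes with a higher difference on Day 1 (6.73% of 26323) and 253 with a lower one (0.961%), and 82 of 108 erythroid genes were among the former, none among the latter (median 2.00, against -0.084 for all genes, or 0.95 against -1.05 with total counts). The interaction was 2.76 for Slc4a1 and 4.10 for Gm25732 (edgeR adjusted p = 0.00121 and 0.000255). Fabp4 had an interaction of 0.92 (edgeR adjusted p = 0.588). All these comparisons share the 50 mg/kg mice of Day 0, so their values are given side by side and are not independent.

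**Figure D5:**
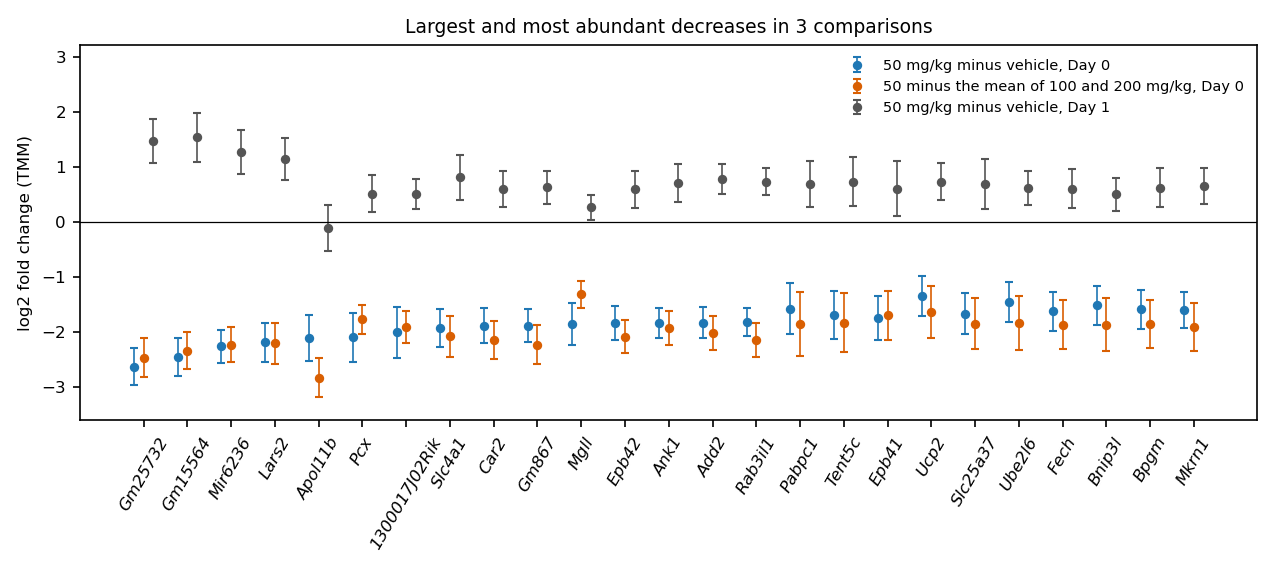
Log2 fold change ± SE (TMM) for the 15 largest decreases and the 10 most abundant ones, in 50 mg/kg against vehicle on Day 0 (blue), 50 mg/kg against the mean of 100 and 200 mg/kg on Day 0 (orange) and 50 mg/kg against vehicle on Day 1 (grey), 6 mice per group. All lie below 0 in both Day 0 comparisons, and on Day 1 all but Apol11b (-0.12) lie above 0, where no gene was called.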

How the data were processed

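Whole-blood RNA of 12 mice was compared, with 24 further mice used for reference. Per the submitters' processing notes, the authors used Trimmomatic 0.36, STAR 2.5.2b (GRCm38) and Subread 1.5.2, and the deposited counts are whole numbers per gene (49315 genes) without normalization. The annotation release is not given in the sources used here. The authors' own DESeq2 fold changes and p-values were not used. Gene names and positions came from GENCODE M21 (GRCm38), which held 99.47% of the gene IDs. Repeated columns of a mouse (24) were identical, and the smallest chi-square statistic per gene between mice of 1 group was 12, far above sampling noise, so no library was counted as a copy.

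Genes with at least 10 counts summed over the mice of a fit were tested with edgeR 4.0.16 (estimateDisp, glmQLFit, glmQLFTest, TMM) in R 4.3.3, and DESeq2 1.42.0 was the second tool. The SE is the log2 fold change divided by the square root of F. Both tools were tested on simulated data. CPM is on the TMM scale. For abundant genes counting error is small at these depths, and spread between mice, 3 to a cage, sets the precision. Counting error weighs more for genes near or under 1 CPM, such as Lcn4 and Esr2.

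The members and gene lists were chosen with earlier results of these data known. Genes were named by a rule: the 3 largest DEGs and the next 12 decreases with at least 10 CPM and no overlap, the 10 most abundant DEGs, up to 8 increases of at least 1 CPM, the 2 most abundant and up to 4 DEGs of each erythroid list, the 10 largest protein-coding decreases, and up to 3 DEGs of other lists, with Alb, Esr1 and Esr2 as checks. Other list members named, and Ucp1 and the other decreases unlike the erythroid lists, were picked after their values were seen. Alternatives covered the tool, scaling, filter, samples in the fit and each mouse left out. Doses in mg/kg come from the paper's methods, where the labels say low, medium and high dose. A few genes are not reported here.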

Additional observations from a re-analysis of the deposited data

Results flagged for a closer look

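A value was marked where the gap between the highest or lowest mouse of a group of 6 and its nearest neighbour exceeded 0.625 of the group's range (Dixon's criterion). Of 262 groups of values, 51 were marked, and chance marks about 1 in 20 groups. Many of these values come from the same few mice and are not independent. Mouse 2 at 50 mg/kg was the highest of its group in CPM for Lars2 (2210), Car2 (616), Gm867 (7.72), Add2 (52.3), Rab3il1 (15.6), Ucp2 (13000), Slc25a37 (9690), Ube2l6 (10400) and Fech (8470). Mouse 2 at 50 mg/kg was the highest of its group in CPM for Bnip3l (9590), Bpgm (8170), Mkrn1 (6820), Hbq1b (68.4), Hbq1a (18.1), Alas2 (37000), Abcb10 (36.2) and Urod (168). Mouse 2 at 50 mg/kg was the highest of its group in CPM for Abcb6 (40.1), Bsg (150), Isca1 (3630), Car1 (5.77), Blvrb (104), Bcl2l1 (1310), Klf1 (3.05), Ftl1 (6350) and Fth1 (2170). Mouse 2 at 50 mg/kg was the highest of its group in CPM for Isg15 (47.6) and Gclm (345). Mouse 4 at 50 mg/kg was the highest of its group in CPM for Fabp4 (6.51), Cidec (1.01) and Adipoq (1.54). Mouse 1 at 50 mg/kg was the highest of its group in CPM for Alb (656). Mouse 2 at 50 mg/kg was the highest of its group in percent of counts for embryonic and minor globin (0.00861%), haem synthesis and transport (5.48%), reticulocyte maturation and mitophagy (4.03%) and red cell enzymes and antioxidants (2.21%). Mouse 1 at 50 mg/kg was the highest of its group in percent of counts for hepatocyte (0.249%). Mouse 4 at 50 mg/kg was the highest of its group in percent of counts for adipocyte (0.00291%). Mouse 17 with vehicle was the highest of its group in CPM for Pcx (140), 1300017J02Rik (118), Mgll (56), Kdr (18.1), Alb (9020) and Esr1 (15.1). Mouse 16 with vehicle was the highest of its group in CPM for Adipoq (11.3) and Acta1 (37.3). Mouse 17 with vehicle was the highest of its group in percent of counts for hepatocyte (1.69%), smooth muscle and endothelium (0.00271%) and mitochondrially encoded genes (0.859%), and the lowest for ribosomal RNA overlap (6.76%). Mouse 16 with vehicle was the highest of its group in percent of counts for skeletal muscle (0.0099%). The signed difference, 50 mg/kg minus vehicle, changed from Day 0 to Day 1 by edgeR's interaction test. It was higher (less negative or more positive) on Day 1 for 1772 genes, 82 of them erythroid list genes, and lower for 253. The erythroid median went from -1.35 on Day 0 to 0.57 on Day 1. Against the mean of 100 and 200 mg/kg on Day 0, 1585 genes were lower at 50 mg/kg, 81 of them erythroid list genes, and 68 were higher.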

How the results depend on the processing

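No paired analysis was possible because the animal numbers of the groups are not shared. Scaled to total counts, calls numbered 2870 against vehicle (307 lower), 4756 against the higher doses (250 lower) and 10577 in the time interaction (10182 lower on Day 1), and the erythroid median was -0.72. Without a limit on the fold change 3449 genes passed, and without mice 1, 5, 16 and 17 there were 632 DEGs, with 4 fewer mice in the fit. Against 100 mg/kg alone edgeR called 0. The other tools, scalings and filters gave 993 to 1364 DEGs against vehicle. Leaving out each mouse gave 818 to 1413 DEGs, an erythroid median of -1.62 to -1.25, 1366 to 1826 genes in the contrast between doses and 1710 to 2268 in the interaction. Increases against vehicle ranged from 14 to 63 over these fits, and moved by over 1.5 times without mouse 1 (19), 3 (16), 4 (14), 5 (19) or 14 (63). Genes with a lower difference on Day 1 numbered 534 without vehicle mouse 17 and 165 without mouse 3. Genes higher than at the other doses numbered 44, 37, 32, 40 and 43 without mouse 1, 3, 4 and 6 and without mouse 12 of the 100 mg/kg group. Esr1 changed sign with total counts (0.20), without mice 1, 5, 16 and 17 (0.14) and without mouse 17 (0.089). Alb changed sign without mouse 17 (7.92). None of these was called, and the cause was not tested. Over the fits without 1 mouse, Esr1 ranged from -0.69 to 0.089 and Alb from -7.52 to 7.92. Among the named genes, 51 calls were lost with total counts, 28 without mice 1, 5, 16 and 17 and 12 with all 4 Day 0 groups in the fit. With TMM factors computed without erythroid and abundant genes, 0 were lost. Named genes without a DESeq2 adjusted p were left out of that comparison. The increases against vehicle had means of at most 1.85 CPM, and 11 genes were higher with filterByExpr.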
